A study of Mus musculus with 24 samples.

Results

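The mesothelium is the single layer of flat epithelial-like cells that covers visceral fat, the gut and the body wall, and 6 genes that mark it were followed here through the visceral adipose tissue of mice with and without partial nephrectomy. The 6 genes (Msln, Upk3b, Upk1b, Wt1, Krt19 and Lrrn4) were chosen by symbol as mesothelial markers, and they are 6 of the 54232 genes in the count table. All 6 had more than 10 counts over the 24 libraries and entered the tests, although Lrrn4, with 11 counts, passed narrowly.

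Mesothelial cells line the peritoneal, pleural and pericardial cavities and secrete a lubricating fluid. They carry keratins as an epithelium does, keep the transcription factor Wt1 from development, and express surface proteins that the fat cells and fibroblasts below them lack. Visceral fat is wrapped in them, while subcutaneous fat is not, so their genes are often used to tell these depots apart. None of the 6 genes is particular to mesothelium in the whole body, since Krt19 is a keratin of many simple epithelia, Upk1b and Upk3b belong to the uroplakins of the bladder lining, and Wt1 is also made by kidney podocytes and by supporting cells of the testis.

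Each of the 4 groups held 6 male C57Bl6 mice, 10 weeks old by the series description, which were kept on normal chow. Control mice had sham surgery and a lentivirus that encodes GFP, NaKtide mice had sham surgery and a lentivirus that encodes NaKtide, PNx mice had partial nephrectomy and the GFP virus, and PNx+NaKtide mice had partial nephrectomy and the NaKtide virus, which encodes GFP as well. For the nephrectomy the poles of the left kidney were tied off and the right kidney was later taken out. NaKtide is a short stretch of the sodium pump, the Na,K-ATPase, meant to block the signal that the pump passes to the kinase Src. All 4 groups therefore carried a lentivirus injected into the peritoneal cavity, whose lining is the tissue these genes mark, and its adiponectin promoter is meant to direct expression to adipocytes. Libraries held between 679250 counts (in the NaKtide group) and 2979505 counts (in the PNx group). The sources used here do not say how the fat was cut from neighbouring organs.

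The libraries held RNA of other tissues as well as fat. The summed level of 12 adipocyte markers had a median of 379 CPM (counts scaled to library size by the TMM method) over the 24 libraries, while that of 15 epididymis epithelium markers had a median of 1392 CPM and that of 8 testis germ cell markers a median of 543 CPM. PNx replicate 6 and NaKtide replicate 6 stood apart with adipocyte sums of 7704 and 5620 CPM. PNx replicates 1, 2 and 3 held the 3 highest germ cell sums, at 1079, 1073 and 1214 CPM. Fold changes of the 6 genes in which these 5 libraries weigh most are given with and without them. In bulk tissue, fewer cells of a type and less RNA per cell cannot be told apart.

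On GRCm38, Wt1 (ENSMUSG00000016458), the zinc finger transcription factor, lies at chr2:105126529-105173616 on the plus strand, and Lrrn4 (ENSMUSG00000043110), a leucine-rich repeat membrane protein, at chr2:132868305-132880891 on the minus strand. Upk3b (ENSMUSG00000042985), a uroplakin, lies at chr5:136038496-136046487 on the plus strand, and Upk1b (ENSMUSG00000049436), a tetraspanin uroplakin, at chr16:38773184-38800328 on the minus strand. Krt19 (ENSMUSG00000020911), a type I keratin, lies at chr11:100140810-100148665, and Msln (ENSMUSG00000063011), the GPI-anchored surface protein mesothelin, at chr17:25748613-25754378, both on the minus strand. None of the 6 shares an exon base with another annotated gene. That matters for their level, because genes with exons that lie across from exons of an opposite-strand gene were 16.8% of the annotated genes and held 79.9% of all counts, and the strand setting of the counting is not given in the sources used here. A low count of these 6 genes therefore cannot be read as a low amount of their mRNA.

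Krt19 was nearly the whole signal of the 6 genes. They held 1352 of 41811369 counts, of which Krt19 held 1119, or 82.8%, and the other 5 held 233. The other totals were 102 counts for Upk1b, 57 for Wt1, 42 for Upk3b, 21 for Msln and 11 for Lrrn4. A sum over the 6 genes is thus in the main a reading of a keratin that other epithelia also make, and no such sum was tested.

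**Figure D1:**
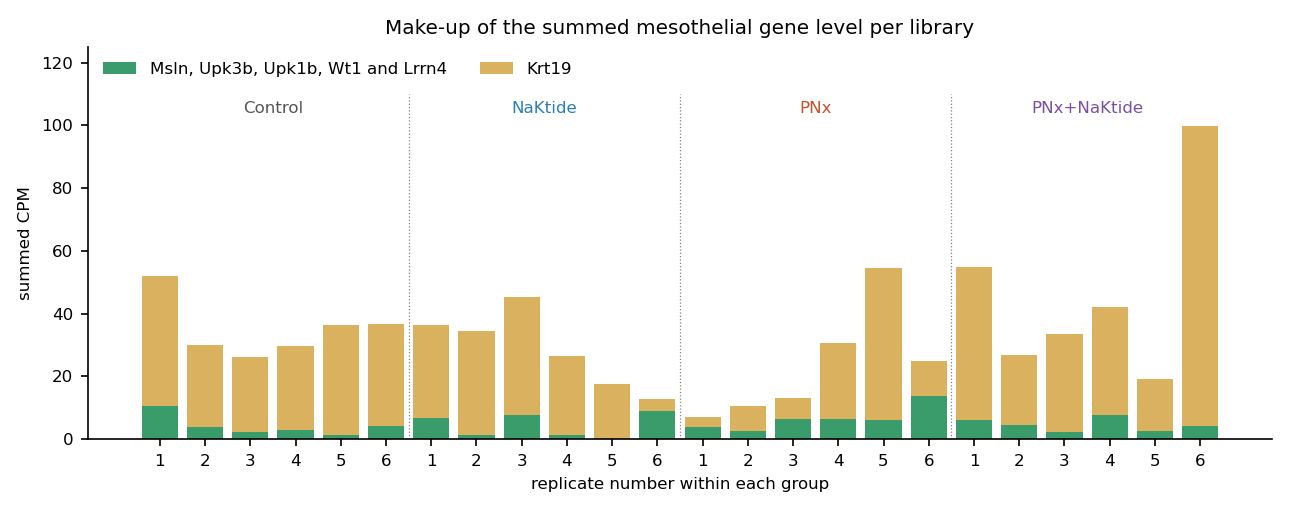
Summed level of the 6 genes in CPM (y axis) in each of the 24 libraries (x axis, replicate number within its group), with the Krt19 portion in yellow above the portion of the other 5 genes in green. Krt19 makes up most of the bar except in NaKtide replicate 6 and in PNx replicates 1 and 6, where the other 5 genes make up the larger portion, and in PNx replicate 3, where both portions equal 6.56 CPM.

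Per length, in the deposited FPKM (fragments scaled to gene length and library size), Krt19 averaged 14.1 ± 9.13 (SD, n = 24) over the libraries, followed by Upk1b at 1.04 ± 0.830. Upk3b stood at 0.224 ± 0.391, Msln at 0.197 ± 0.420, Wt1 at 0.180 ± 0.243 and Lrrn4, the lowest, at 0.0620 ± 0.0948. In this order only Krt19 and Upk1b differed by more than either SD, and every other pair of neighbours differed by less than at least 1 of their SDs. Among 11957 tested protein-coding genes that share no exon base with an opposite-strand gene, Krt19 stood at the 95.8th percentile of mean FPKM and Upk1b at the 53.6th. Upk3b, Msln, Wt1 and Lrrn4 stood at the 17.2nd, 14.7th, 13.3rd and 2.23rd percentile. The defining surface markers of mesothelium were thus at or near 0 in many libraries: Msln had counts in 7 and Upk3b in 13 of the 24. The data go against a reading of the 6 genes as 1 well-measured mesothelial signal, and they are described below gene by gene.

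Krt19, a keratin of simple epithelia, had its highest group median in PNx+NaKtide and its lowest in PNx. In Control it ran from 23.7 to 41.3 CPM with a median of 29.8, and in NaKtide from 3.88 to 37.7 CPM with a median of 27.6. In PNx it ran from 3.20 to 48.7 CPM with a median of 9.70, and in PNx+NaKtide from 16.6 to 95.7 CPM with a median of 33.0. PNx replicates 1, 2, 3 and 6 lay below every Control library, at 3.20, 8.08, 6.56 and 11.3 CPM, whereas PNx replicate 5, at 48.7 CPM, lay above every Control library. All groups overlapped. The log2 fold change of PNx against Control was -0.88 ± 0.54 (SE), with a 95% interval from -2.0 to 0.23 and an adjusted p of 0.283 (edgeR's quasi-likelihood test with Benjamini-Hochberg adjustment over 26116 genes). Without PNx replicate 5 it was -1.57 and passed the threshold of 0.1, while without PNx replicates 1, 2 and 3 it was -0.16. PNx+NaKtide against PNx gave 1.31 ± 0.55, with an unadjusted p of 0.0243 and an adjusted p of 0.363 by edgeR, and 0.58 without PNx replicates 1, 2 and 3.

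Upk1b, a tetraspanin that pairs with other uroplakins in the bladder lining, was the only other member with over 100 counts. In Control it ran from 1.18 to 6.03 CPM with a median of 2.21, and in PNx from 0 to 4.75 CPM with a median of 1.89. In NaKtide 4 libraries had 0 counts and the highest had 5.59 CPM, and in PNx+NaKtide it ran from 0.714 to 4.98 CPM with a median of 2.94. The groups overlapped throughout, and PNx against Control gave -0.34 ± 0.83 on the log2 scale (adjusted p = 0.808, edgeR), and 0.47 without PNx replicates 1, 2 and 3.

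Wt1, which the mesothelium keeps from the embryonic coelomic lining, was unevenly spread in PNx. Its counts in PNx replicates 1 to 6 were 10, 2, 18, 0, 0 and 3, against 2, 0, 1, 1, 0 and 1 in Control. In NaKtide they were 3, 1, 1, 1, 0 and 2, and in PNx+NaKtide 1, 4, 1, 4, 0 and 1. The high PNx libraries were replicates 1 and 3, and replicates 4 and 5 had no Wt1 count. The log2 fold change of PNx against Control was 1.67 ± 0.83 (95% interval -0.027 to 3.37, unadjusted p = 0.0535, adjusted p = 0.201, edgeR). Without PNx replicates 1, 2 and 3 it was -0.089. PNx replicates 1, 2 and 3 held 52.6% of all Wt1 counts, against 19.1% of the counts of all genes.

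Upk3b, a uroplakin of mesothelium as well as of the bladder lining, and Msln, the surface protein mesothelin, were led by the same pair of libraries. Upk3b counts in PNx were 2, 2, 2, 1, 0 and 17, and in NaKtide they were 0, 0, 1, 0, 0 and 6. Control held 5, 2, 1, 1, 0 and 1 Upk3b counts, and PNx+NaKtide held a single count in its 6 libraries. For Msln the counts were 0, 0, 0, 1, 2 and 8 in PNx and 1, 0, 0, 0, 0 and 5 in NaKtide, against 3 counts in 1 Control library and 1 count in 1 PNx+NaKtide library. PNx replicate 6 and NaKtide replicate 6 together held 54.8% of the Upk3b counts and 61.9% of the Msln counts, against 8.38% of the counts of all genes. For PNx against Control, Upk3b gave 0.73 ± 0.92 and Msln 1.37 ± 1.15 on the log2 scale (adjusted p of 0.611 and 0.431, edgeR). Without PNx replicate 6 alone the values were -0.72 for Upk3b and 0.017 for Msln. Over all single libraries left out in turn, the Msln value ran from 0.017 to 3.64. For PNx+NaKtide against PNx, Upk3b gave -3.14 ± 1.20 (unadjusted p = 0.0141, adjusted p = 0.357, edgeR) and Msln -2.28 ± 1.31 (adjusted p = 0.432, edgeR), and the groups overlapped for both. Without PNx replicate 6 these values were -1.69 and -0.94, and over all single libraries left out they ran from -4.56 to -1.69 for Upk3b and from -3.65 to -0.94 for Msln.

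Lrrn4, a membrane protein with leucine-rich repeats that marks mesothelial cells in several organs, had no count in any Control library. It had 3 counts in NaKtide, 6 in PNx and 2 in PNx+NaKtide, and never more than 3 in 1 library. Against a floor of 3 counts over the Control group, the 6 observed PNx counts gave a bound of 1.33-fold higher in PNx. That bound allows for no counting error in the PNx counts and no spread between mice. The difference did not pass (adjusted p = 0.152, edgeR). PNx replicate 1 held 3 of the 6 PNx counts, and without it PNx was at the floor and no bound could be given. At 3 counts over the NaKtide group it was at the floor, so no fold is given there. A count of 3 in 1 library was worth between 0.739 and 5.91 CPM, depending on the library's scaled size. The floor covers only counting error in the group at the floor.

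**Figure D2:**
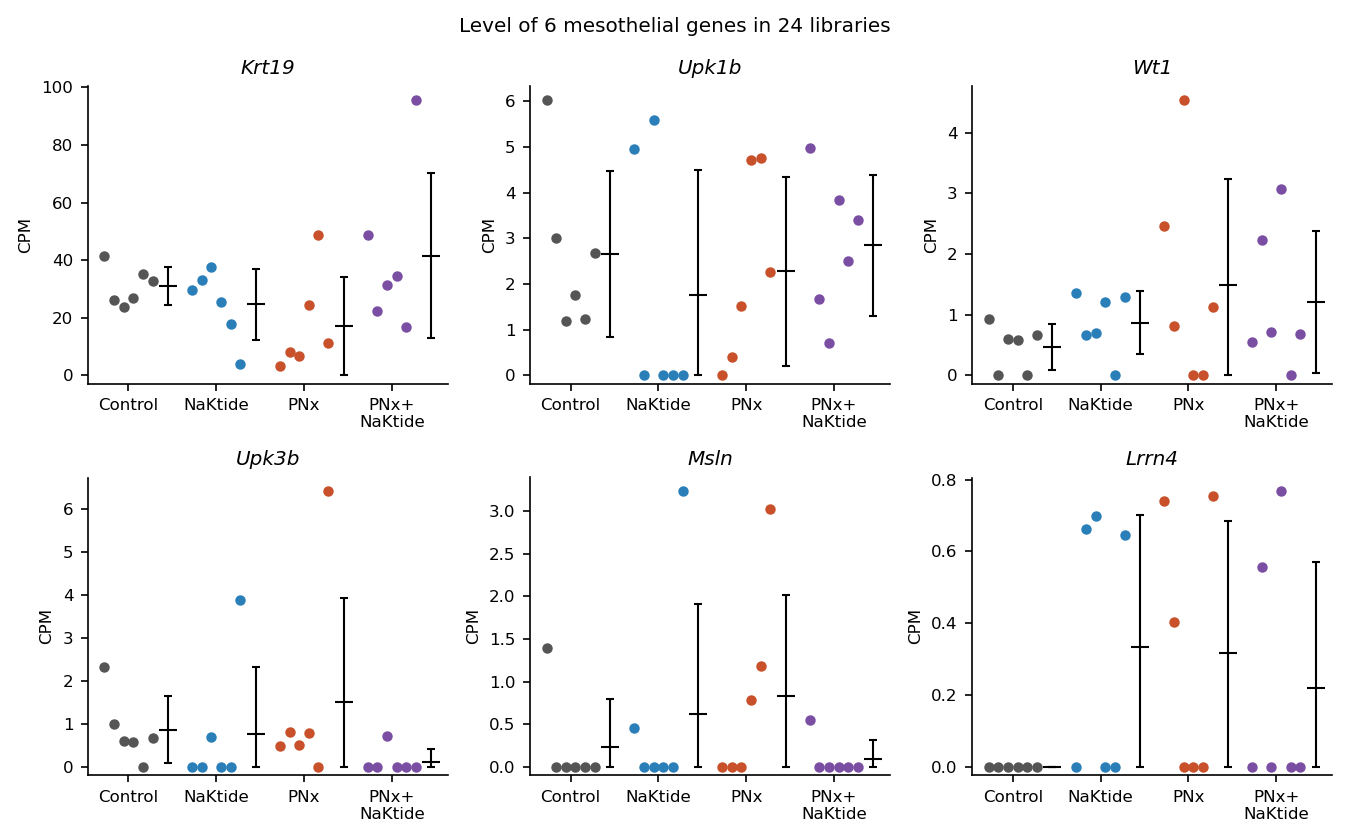
Level of each of the 6 genes in CPM (y axes, with different ranges) by group (x axes), 1 point per library, with the group mean and SD as a bar to the right of the points (the lower arm stops at 0). Krt19 is low in 4 PNx libraries and high in PNx+NaKtide replicate 6 (95.7 CPM), and Upk3b and Msln each have 1 high NaKtide and 1 high PNx library.

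Whether nephrectomy changed these genes, whether NaKtide did so in sham or nephrectomized mice, and whether the effect of nephrectomy depended on NaKtide were each asked of the fit over all genes. In PNx against Control, 0 of the 6 genes passed the adjusted threshold of 0.1 by edgeR, where 0.0766% of all genes tested did (20 genes, all lower in PNx). At an unadjusted p under 0.05 by edgeR 1 of the 6 passed (Lrrn4), against 25.4% of all genes. None of the counts that took Lrrn4 past the filter lay in Control, so this pass rests on an empty Control group. DESeq2 gave 4 of the 6 an adjusted p and called 1 (Wt1), with 34.9% of the genes it gave one. Limma voom with sample weights called 3 (Krt19, Wt1 and Upk1b), with 63.8% of all genes. The 1 of 4 and the 3 of 6 do not exceed these shares. The fitted log2 fold changes were above 0 for 4 and below 0 for 2 of the 6 genes, with a median of 1.05, or 0.57 with Lrrn4 at its bound, while the median of all genes tested was 0.36. That median was 0.76 with DESeq2 size factors and 0.70 with plain library sizes. Relative to the median, Krt19 was at -1.24, -1.41 and -1.46 under these 3 scalings.

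In PNx+NaKtide against PNx, 0 of the 6 genes passed by edgeR, and 0% of all genes did. At an unadjusted p under 0.05 by edgeR 2 of the 6 passed, Upk3b lower and Krt19 higher in PNx+NaKtide, against 12.7% of all genes. DESeq2 gave 2 of the 6 an adjusted p and called 0, with 9.63% of the genes it gave one, and limma voom with sample weights called 1 (Krt19), with 44.0% of all genes. The fitted values had a median of -0.47 over the 6 genes and of -0.37 over all genes. This comparison and the one before it share the PNx libraries.

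In NaKtide against Control, 0 of the 6 genes passed by edgeR with 0% of all genes, and 1 (Lrrn4) had an unadjusted p under 0.05, against 3.95% of all genes. Lrrn4 had 3 counts against 0 there, which is at the floor, so this pass is not read as a difference. In PNx+NaKtide against NaKtide, 0 of the 6 passed by edgeR with 0% of all genes, and 0 had an unadjusted p under 0.05, against 4.09% of all genes. In NaKtide against Control DESeq2 and limma voom called 0 of the 6, with 0.0116% of the genes that DESeq2 gave an adjusted p and 0.00766% of all genes by limma voom, and in PNx+NaKtide against NaKtide they called 0, with 0.00776% and 0%. The largest of these differences with counts in every group was that of Upk3b in PNx+NaKtide against NaKtide, at -2.35 ± 1.29 on the log2 scale (adjusted p = 1 by edgeR), with 1 count against 7. For the interaction of nephrectomy and NaKtide, 0 of the 6 passed by edgeR with 0% of all genes, and 2 (Krt19 and Lrrn4) had an unadjusted p under 0.05, against 9.27% of all genes. The value of Lrrn4 again rests on a Control group without a count. The interaction was 1.63 ± 0.77 for Krt19 (adjusted p = 0.528, edgeR). DESeq2 gave 2 of the 6 an adjusted p here and called 0, with 0.580% of the genes it gave one, and limma voom with sample weights called 1, Krt19, with 25.5% of all genes.

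**Figure D3:**
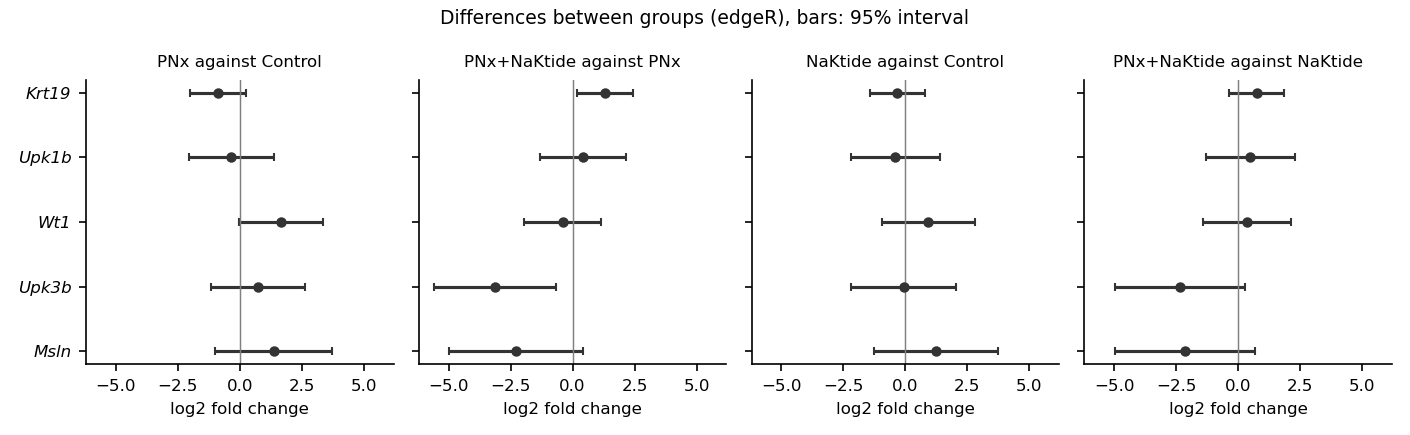
Log2 fold changes (x axes) of 5 of the 6 genes (y axis) in 4 comparisons, as points with their 95% intervals from the edgeR fit. Lrrn4 is left out because Control held none of its counts. The widest intervals are those of Msln and Upk3b, and in PNx+NaKtide against PNx the interval of Krt19 lies above 0 (0.18 to 2.43) and that of Upk3b below 0 (-5.59 to -0.68), with neither past the adjusted threshold.

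Beyond the 6 genes, 32 other markers of mesothelium were listed and 27 of them had more than 10 counts. The 5 that did not were Gpm6a, Gata5, Upk2, Upk3a and Mslnl. The list is not particular to mesothelium, since Upk1a, Upk2 and Upk3a also stand for urothelium below, and Krt8 and Krt18 are keratins of other simple epithelia as well. By edgeR 0 of the 27 passed the adjusted threshold in any of the 5 contrasts. In PNx against Control 12 of the 27 had an unadjusted p under 0.05, 10 higher and 2 lower (Prr15 and Upk1a) in PNx, against 25.4% of all genes tested. Their median fitted log2 fold change was 0.76, or 0.63 with the 2 genes without a Control count at their bounds. In PNx+NaKtide against PNx 6 of the 27 had an unadjusted p under 0.05, 2 higher and 4 lower, against 12.7% of all genes. The unadjusted counts were 3 of 27 in NaKtide against Control (3.95% of all genes), 3 in PNx+NaKtide against NaKtide (4.09%) and 8 in the interaction (9.27%). Pkhd1l1 and Nkain4, which had no Control count, were among those of NaKtide against Control and of the interaction. DESeq2 called 8 of 24 with an adjusted p in PNx against Control (34.9% of all genes with one), 1 of 16 in the interaction (0.580%) and 0 in the other contrasts. Limma voom with sample weights called 20 of 27 in PNx against Control (63.8% of all genes), 13 in PNx+NaKtide against PNx (44.0%), 10 in the interaction (25.5%) and 0 in the other two.

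The 5 of highest mean level were Krt18 (67.2 CPM), Dsp (45.7), Krt8 (40.8), C3 (26.0) and Tgm1 (16.3). Of these, Dsp shares 499, Tgm1 182 and Krt8 101 exon bases with an opposite-strand gene, so their counts may hold reads of that gene. Krt8 and Krt18 are the partner keratins of simple epithelia and Dsp is desmoplakin of the desmosomes. Like Krt19, all 3 were below 0 in PNx against Control, at -0.88 ± 0.55 for Krt8, -0.89 ± 0.73 for Krt18 and -0.86 ± 0.63 for Dsp on the log2 scale, with adjusted p of 0.294, 0.420 and 0.357 by edgeR. Without PNx replicates 1, 2 and 3 the values were -0.37, -0.047 and -0.81.

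Aldh1a2, which makes retinoic acid and is strong in mesothelium, was the single marker whose groups did not overlap in PNx against Control. It ran from 2.36 to 8.83 CPM in PNx and from 0 to 1.85 CPM in Control, and all 6 PNx libraries lay above all 6 Control libraries. The lowest PNx and the highest Control library each held 3 counts, so at that edge the groups stood apart by library scaling alone. Groups stood apart with PNx higher in 0.119% of all genes tested, and in 0 of the 6 genes. The log2 fold change of Aldh1a2 was 2.22 ± 0.73 (adjusted p = 0.133, edgeR). It was 1.59 (adjusted p = 0.479, edgeR) without PNx replicates 1, 2 and 3, and 2.31 without PNx replicate 6 and NaKtide replicate 6, where it passed (adjusted p = 0.0605, edgeR). In PNx+NaKtide it ran from 0 to 0.832 CPM, below every PNx library, at -3.01 ± 0.80 against PNx (adjusted p = 0.357, edgeR), and at -2.38 without PNx replicates 1, 2 and 3. Groups stood apart with PNx+NaKtide lower in 0.0996% of all genes tested, and again in 0 of the 6 genes.

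**Figure D4:**
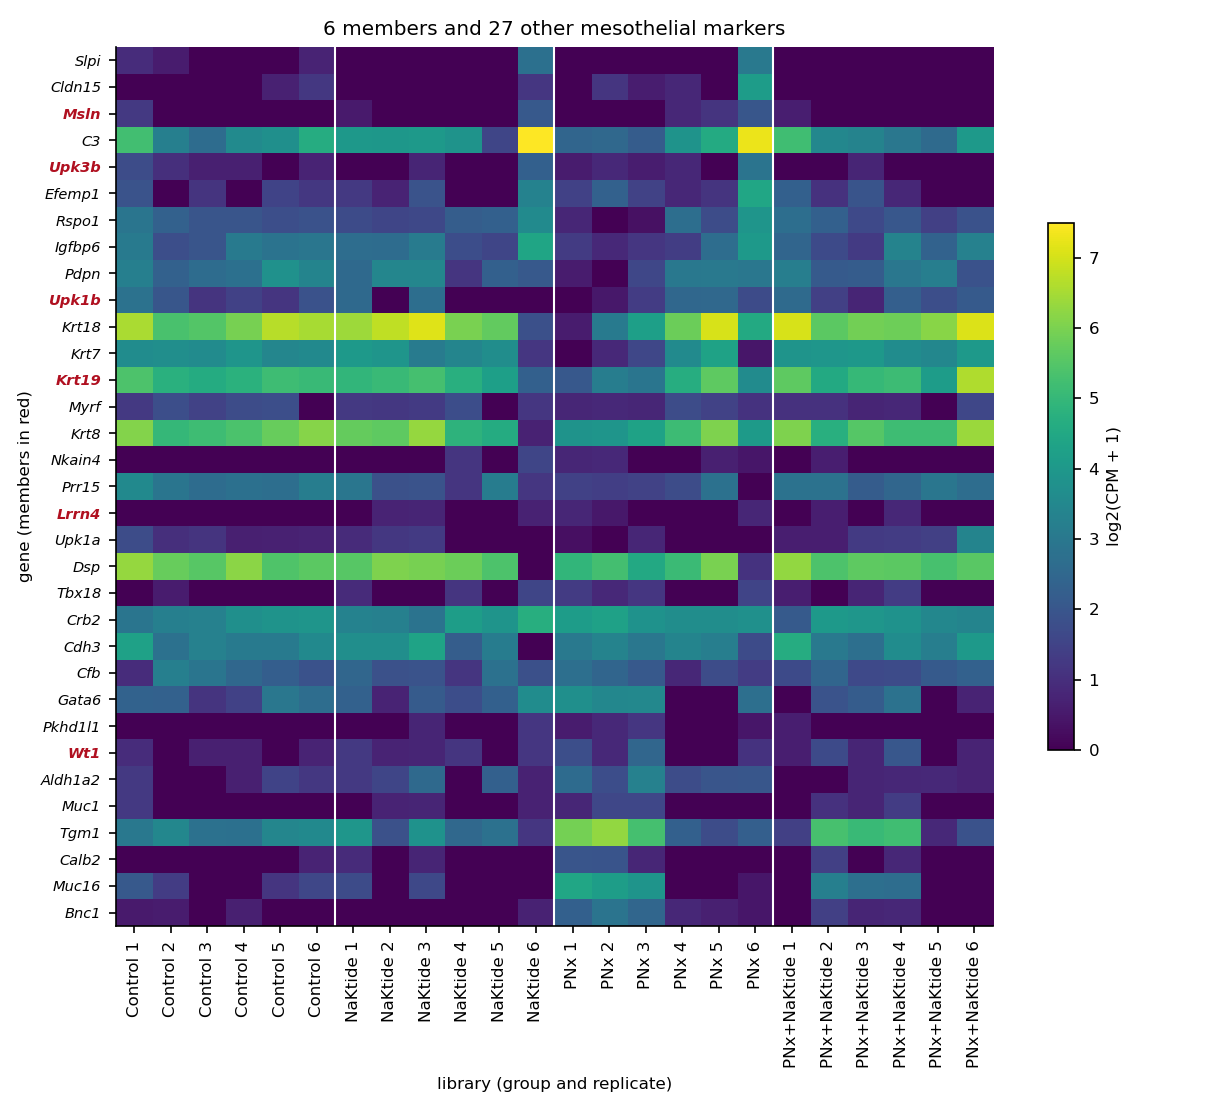
Level of the 6 genes (red) and of the 27 other mesothelial markers as log2(CPM + 1), by gene (y axis) and library (x axis, the 4 groups separated by white lines). Genes are ordered from those with the larger share of their counts in PNx 6 and NaKtide 6 (top) to those with the larger share in PNx 1, 2 and 3 (bottom). In CPM, Aldh1a2 is higher in every PNx library than in any Control library, though the lowest PNx and the highest Control library each held 3 counts.

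The 33 mesothelial genes tested differed in which libraries held most of their counts. For 6 of the 33 more than 50% of the counts lay in PNx replicate 6 and NaKtide replicate 6, and for 9 of the 33 more than 50% lay in PNx replicates 1, 2 and 3. These libraries held 8.38% and 19.1% of the counts of all genes. How many of all genes pass the same 50% mark was not counted, so the 6 and the 9 are not shown to be particular to mesothelial genes. Besides Msln and Upk3b, the first set held Slpi (87.5%), Cldn15 (83.6%), C3 (57.7%) and Efemp1 (52.7%). Besides Wt1, the second set included Bnc1 (80.6%), Muc16 (77.0%), Calb2 (73.3%), Tgm1 (63.3%) and Aldh1a2 (57.9%). Apart from C3, Tgm1 and Aldh1a2, these genes were picked for mention after their values had been seen. Slpi is a secreted protease inhibitor, Muc16 a cell surface mucin, Calb2 is calretinin and Bnc1 the zinc finger factor basonuclin.

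PNx+NaKtide replicates 2, 3 and 4 resembled PNx replicates 1, 2 and 3 in part of the second set. Tgm1, which cross-links proteins of the epidermal barrier, stood at 39.0, 32.9 and 36.1 CPM in these libraries and at 60.6, 76.3 and 38.4 CPM in PNx replicates 1, 2 and 3. It ran from 0.832 to 14.4 CPM in the other 18 libraries. Muc16 stood at 8.36, 5.72 and 5.37 CPM in PNx+NaKtide replicates 2, 3 and 4, and at 20.7, 17.0 and 13.9 CPM in PNx replicates 1, 2 and 3. Aldh1a2, also of that set, did not show this. It ran from 0 to 0.832 CPM in PNx+NaKtide and from 2.36 to 8.83 CPM in PNx. Bnc1 reached 1.67 CPM in PNx+NaKtide and 6.46 CPM in PNx. The germ cell sums of PNx+NaKtide replicates 2, 3 and 4 were 696, 903 and 971 CPM, which with PNx replicates 1, 2, 3 and 6 made up the 7 highest.

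Over the 24 libraries, 15 pairs of the 6 genes were correlated on log2 CPM. One pair passed an adjusted p of 0.05 on ranks, Upk1b with Krt19 (Spearman's rho 0.626, permutation p = 0.00138, adjusted p = 0.0207, and Pearson's r 0.584, permutation p = 0.00248, adjusted p = 0.0186). The call was lost without PNx replicates 1, 2 and 3, where 0 of the 15 pairs passed. Without the 2 libraries farthest from the median of Upk1b its r was 0.522, and over the 19 libraries other than the 5 that stood apart its rho was 0.547. Msln and Upk3b gave a Pearson's r of 0.738 (permutation p = 0.00054, adjusted p = 0.0081) but a rho of 0.355 (permutation p = 0.0899, adjusted p = 0.331), and without the 2 farthest libraries r was 0.264, so the relation rested on those libraries. Wt1 and Lrrn4 gave a rho of 0.526 (permutation p = 0.00854, adjusted p = 0.0640) and an r of 0.472 (permutation p = 0.0195, adjusted p = 0.0975), which was 0.586 without the 2 farthest. Msln had counts in 7 and Lrrn4 in 8 of the 24 libraries, so their ranks mainly set libraries with counts against those without.

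The genes most like Krt19 by Spearman's rho over the 24 libraries were Krt5, a keratin of basal epithelial cells (0.950), Lcp1, an actin-bundling protein of leukocytes (0.945), and Abca2, a lipid transporter (0.945). Krt5 shares 129 exon bases and Lcp1 311 with an opposite-strand gene, so their counts may hold reads of that gene. Those most like Upk1b were Pim2, a kinase (0.815), Scel, sciellin of stratified epithelia (0.796), and Map3k1, a signalling kinase (0.795). The other 4 members had under 100 counts each and were not matched.

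Each of the 6 genes was also set beside 13 marker sums, in 78 relations, because other cell types make some of them, and 13 of the 78 passed an adjusted p of 0.05 on ranks. The permutations ran over all libraries without regard to group. These relations therefore mix differences between groups with those between mice of a group, and no version within groups was run. Krt19 moved with the sum of Krt8 and Krt18 (rho 0.917, adjusted permutation p = 0.00026, r 0.919, adjusted permutation p = 0.00026, and r 0.902 without the 2 farthest libraries). It also moved with the sum of 6 markers of simple and stratified epithelium (rho 0.924, adjusted permutation p = 0.00026, r 0.793, adjusted permutation p = 0.000468, and r 0.905 without the 2 farthest). Over the 19 libraries other than the 5 that stood apart, these rho values were 0.835 and 0.863. With the epididymis epithelium sum its rho was 0.730 (adjusted permutation p = 0.00214) and its r 0.832 (adjusted permutation p = 0.00026), and over the 19 libraries other than the 5 its rho was 0.461. The epididymis sum ran from 982 to 2479 CPM in Control and from 6.41 to 2357 CPM in PNx, with all 15 markers present. The part of these epithelia in the Krt19 level was not tested.

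Wt1 moved with the testis germ cell sum (rho 0.703, adjusted permutation p = 0.00299, r 0.610, adjusted permutation p = 0.00886, and r 0.603 without the 2 farthest libraries). Over the 19 libraries other than the 5 its rho was 0.552. The germ cell sum ran from 158 to 644 CPM in Control and from 193 to 1214 CPM in PNx, with all 8 markers present. Sycp3 made up 25.5% of the germ cell list and shares 660 exon bases with an opposite-strand gene, so its counts may hold reads of that gene. Of the cells outside mesothelium that make Wt1, the testis supporting cell list was 97.5% Clu, a gene of many tissues, and the podocyte list was 99.7% Nphs1, which shares 597 exon bases with an opposite-strand gene, so neither sum reads its cell type. These 2 sums account for 3 of the 13 relations that passed. The supporting cell list passed with Krt19 (rho 0.926, adjusted permutation p = 0.00026, r 0.911) and with Upk1b (rho 0.544, adjusted permutation p = 0.0431, r 0.530). The podocyte list passed with Wt1, negatively (rho -0.63, adjusted permutation p = 0.0121, r -0.63). Another relation that passed was a negative one of Wt1 with the macrophage sum (rho -0.62, adjusted permutation p = 0.0135, r -0.68, adjusted permutation p = 0.00331, and r -0.45 without the 2 farthest). The macrophage sum was 93.2% Csf1r, with 873 exon bases across from another gene. Lrrn4, with counts in 8 of the 24 libraries, gave a rho of 0.562 with the germ cell sum (adjusted permutation p = 0.0290, r 0.494, adjusted permutation p = 0.0370, and r 0.461 without the 2 farthest). The part of testis tissue in the Wt1 level was not tested.

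Msln moved with the endothelium sum (rho 0.643, adjusted permutation p = 0.0088, r 0.794, adjusted permutation p = 0.00065) and the fibroblast progenitor sum (rho 0.585, adjusted permutation p = 0.0199, r 0.799, adjusted permutation p = 0.000468). Without the 2 farthest libraries the r values were 0.472 and 0.442, and over the 19 libraries the rho values were 0.493 and 0.522. Msln had counts in 7 of the 24 libraries, so its ranks mainly set libraries with counts against those without. With the adipocyte sum Msln gave an r of 0.742 (adjusted permutation p = 0.00546) and a rho of 0.394 (adjusted permutation p = 0.159), and Upk3b an r of 0.642 (adjusted permutation p = 0.0142) and a rho of 0.0951 (adjusted permutation p = 0.800). Without the 2 farthest libraries these r values were 0.232 and -0.07, so both rested on those libraries. Endothelium sums reached 382 CPM in PNx and 65.3 CPM in NaKtide against a median of 9.33 CPM over all libraries, and fibroblast progenitor sums reached 488 and 273 CPM against a median of 55.4 CPM. The part of adipocytes, fibroblasts or vessels in the Msln and Upk3b levels was not tested.

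Upk1b moved with the Krt8 and Krt18 sum (rho 0.612, adjusted permutation p = 0.0157, r 0.586, adjusted permutation p = 0.00886, and r 0.433 without the 2 farthest) and with the epithelium sum (rho 0.702, adjusted permutation p = 0.00299, r 0.509, adjusted permutation p = 0.0204, and r 0.669 without the 2 farthest libraries). For urothelium, the bladder lining that makes Upk1b, the sum of Upk1a, Upk2, Upk3a and Krt20 had a median of 1.16 CPM and a highest value of 9.50 CPM, in PNx+NaKtide. The relation of Upk1b with that sum did not pass (rho 0.120, adjusted permutation p = 0.719, r 0.0883, adjusted permutation p = 0.755), and the part of urothelium in the Upk1b level was not tested.

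**Figure D5:**
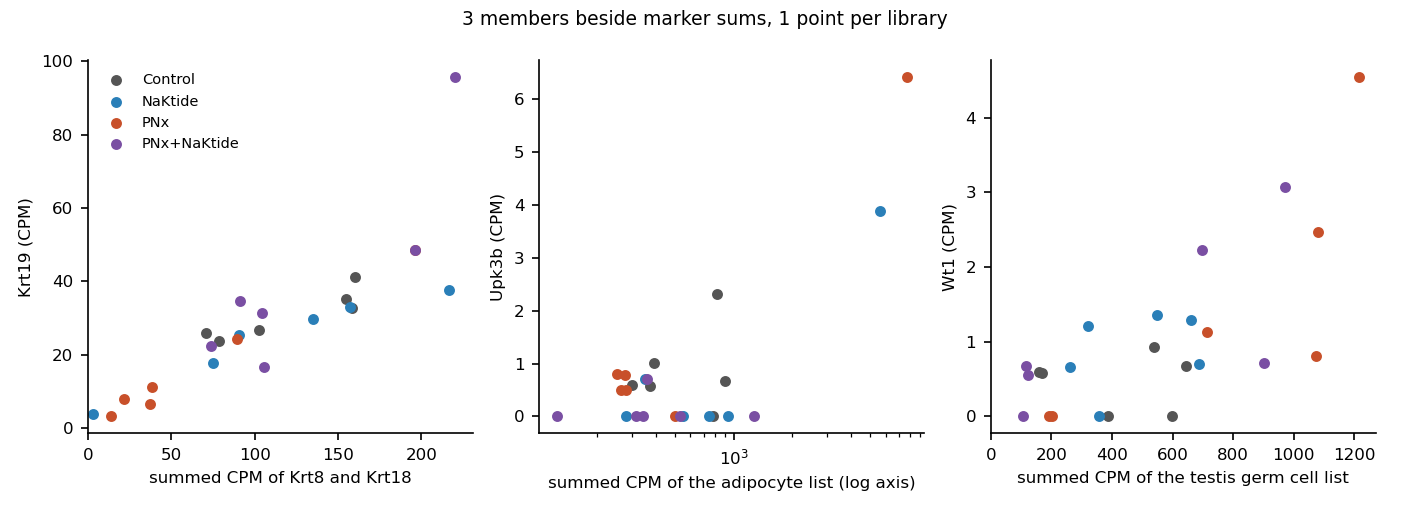
Level of Krt19, Upk3b and Wt1 in CPM (y axes) beside the summed CPM of Krt8 and Krt18, of the adipocyte list (log axis) and of the testis germ cell list (x axes), 1 point per library, coloured by group. Krt19 rises along the keratin sum in all groups (rho 0.917), while the 2 highest Upk3b levels are those of PNx replicate 6 and NaKtide replicate 6 (6.42 and 3.88 CPM).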

How the data were processed

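RNA from visceral adipose tissue of 24 mice was sequenced, 6 per group. Groups came from the labels. Per the labels and the methods of the study, stranded mRNA libraries were read as pairs, trimmed with Trimmomatic 0.38, aligned to GRCm38 with HISAT2 2.1.0 and counted per gene with GenomicAlignments. Neither the annotation release nor the strand setting is given in the sources used here. Raw counts, deposited by the authors, were used for the tests, and their deposited FPKM was used for levels between genes and for alternatives. The deposited normalized values were not used. FPKM equalled the count times 1 factor per library and 1 constant per gene.

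Gene positions came from GENCODE M21. Genes with more than 10 counts in all (26116) were fitted with edgeR 4.0.16 in R 4.3.3 (TMM scaling, robust quasi-likelihood F-test, 1 fit of 4 group means, Benjamini-Hochberg adjusted p under 0.1). Standard errors are the fold change over the square root of F, and 95% intervals use the t quantile at the residual degrees of freedom of the fit. Correlations used log2 CPM with a prior count of 2 and 100000 permutations, two-sided. The 2 farthest libraries were those farthest from the median of the first-named gene of a pair, or of the marker sum. They therefore differ between relations. The functions were tested on simulated data for PNx against Control, with 200 genes changed. These were drawn only from genes above a mean count that Krt19 reached and Upk1b, Wt1, Upk3b, Msln and Lrrn4 did not. The rates below therefore do not hold for those members of few counts. There edgeR recovered 35% of the 4-fold and 80% of the 8-fold changes, and 8% of its calls were false. DESeq2 recovered 57% and 90% with 25% of its calls false, and limma voom 35% and 71% with 15.9% false. Depth ran from 679250 to 2979505 counts, which leaves a gene of few counts with a wide interval. Within groups, every pair of libraries differed by more than sampling noise. P-values measure the spread between libraries.

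Named genes were the 6 members, other markers that were called or, as none was, the 5 of highest mean CPM and any whose groups stood apart in PNx against Control, and the 3 genes most like each member with at least 100 counts. The members and lists were chosen with earlier results of these data known. Alternatives were DESeq2 size factors, library sizes, no filter, the filterByExpr filter, a stricter threshold of 0.05, a replicate block, DESeq2 1.42.0, limma 3.58.1 voom with sample weights, limma on log2(FPKM + 1) and log2(FPKM + 0.1), the compared groups alone, and leaving out libraries. DESeq2 gave some genes no adjusted p, and these were left out of its counts.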

Additional observations from a re-analysis of the deposited data

Results flagged for a closer look

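A library far from the other 5 of its group was looked for in 23 groups of 6 libraries (a gene in a group), and 7 were found. For normally distributed values chance alone gives such a value in about 5% of groups, a share that does not hold for counts this low. A group with counts in only 1 library is always flagged, so a single count can be enough. Msln stood apart in Control replicate 1 (1.39 CPM, 3 counts), in NaKtide replicate 6 (3.23 CPM, 5 counts) and in PNx+NaKtide replicate 1 (0.554 CPM, 1 count), each in a group whose other 5 libraries had a median of 0. Upk3b stood apart in NaKtide replicate 6 (3.88 CPM, 6 counts), in PNx replicate 6 (6.42 CPM, 17 counts) and in PNx+NaKtide replicate 3 (0.714 CPM, 1 count). Upk1b stood apart in Control replicate 1 (6.03 CPM, 13 counts), where the median of the other 5 Control libraries was 1.75 CPM.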

How the results depend on the processing

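Of the values recomputed under an alternative, 1432 kept their direction and call (counts within 1.5 times), 82 counts moved by more, 13 fold changes newly passed and 26 turned in sign, and the cause of these changes was not tested. In PNx against Control the number of the 6 genes called (0 by edgeR) was 2 with DESeq2 size factors, 1 with library sizes, 1 with DESeq2, 3 with limma voom with sample weights and between 0 and 2 when 1 library was left out, with 2 without PNx replicate 4 (Wt1 and Lrrn4) and 2 without PNx replicate 5 (Krt19 and Lrrn4). The number of the 27 other markers called was 11, 9, 8 and 20 in the same order, 1 under filterByExpr, 9 without PNx replicate 6 and NaKtide replicate 6, and between 0 and 12 when 1 library was left out (11, 12 and 6 when PNx replicate 4, 5 or 6 was the library left out). Lrrn4 was tested in only 16 of the 24 fits with 1 library left out. In the others it fell under the count filter and could not be called. Limma voom with sample weights called 1 of the 6 and 13 of the others in PNx+NaKtide against PNx, and 1 and 10 in the interaction, where DESeq2 called 1 other marker. At an unadjusted p under 0.05, an alternative chosen after seeing the data, 1, 2, 1 and 2 of the 6 passed in PNx against Control, PNx+NaKtide against PNx, NaKtide against Control and the interaction. Lrrn4, which had no Control count, was among them in both comparisons with Control and in the interaction. Over all genes, PNx against Control gave 20 calls by edgeR, 8696 with DESeq2 size factors, 4102 with library sizes, 2159 under filterByExpr, 7764 by DESeq2, 16654 by voom, 5575 without PNx replicate 6 and NaKtide replicate 6, 40 and 7 on log2(FPKM + 1) and log2(FPKM + 0.1), 1 without a filter, 0 on the compared groups alone, 0 at an adjusted p under 0.05, 0 without PNx replicates 1, 2 and 3, and between 0 and 8645 when 1 library was left out. The number of correlated pairs (1) was 2 with library sizes, 2 with DESeq2 size factors, 2 on log2(FPKM + 1), 0 without PNx replicates 1, 2 and 3, 2 without PNx replicate 6 and NaKtide replicate 6 and 3 without the 2 farthest libraries. The values of Aldh1a2, Krt8, Krt18 and Dsp without the named libraries were also added after seeing the data. Without Krt19, chosen after seeing the data, the summed count of the members was 233.

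Log2 fold changes that turned in sign were the following. Upk3b in NaKtide against Control was 0.090 with DESeq2 size factors and 0.12 by DESeq2. Voom gave -0.78 for Msln and -0.30 for Upk3b in PNx against Control, 0.81 for Msln and 0.67 for Lrrn4 in PNx+NaKtide against PNx, and 0.24 for Msln in the interaction. Without PNx replicates 1, 2 and 3, PNx against Control was 0.47 for Upk1b and -0.089 for Wt1, PNx+NaKtide against PNx was -0.39 for Upk1b and 1.29 for Wt1, and the interaction for Wt1 was 0.40. Without PNx replicate 6 and NaKtide replicate 6, Upk3b was -0.72 in PNx against Control and 0.42 in the interaction. With 1 library left out, PNx against Control ran from -0.72 to 0.095 for Upk1b and from -0.72 to 1.30 for Upk3b. NaKtide against Control ran from -2.10 to 0.51 for Upk3b, from -1.03 to 0.022 for Upk1b and from -0.67 to 3.49 for Msln. Wt1 ran from -0.85 to 0.27 in PNx+NaKtide against PNx and from -0.11 to 0.57 in PNx+NaKtide against NaKtide.

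With the replicate number as a block, 0 of the 6 genes were called in any contrast, 1 gene of all was called in PNx against Control, and Upk3b turned to -0.055 there. Of 36 pairs of libraries with the same number in different groups, 19 had a correlation of deviations over 0.1 (median 0.124, from -0.592 to 0.712), and 10 of 24 libraries correlated best with their own number. For differing numbers the median was lower, at -0.055. The sample titles name no pairing, so the main fit did not pair the samples, and whether the numbers stand for a shared origin was not tested. Depth limits Msln, Upk3b, Wt1 and Lrrn4 most, since 3 counts in a library exceed most of their values.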
